A study of Mus musculus with 2 samples.

Results

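The genes described here code for the extracellular matrix and for the integrins that bind it: collagens, laminins, fibronectin, nidogens, perlecan, agrin and the integrin alpha and beta chains. They were taken by symbol from a table of RNA levels in mouse embryonic stem cells, as every collagen chain (Col), laminin chain (Lam) and integrin chain (Itg) plus Fn1, Nid1, Nid2, Hspg2, Sparc, Vtn, Agrn, Dag1, Thbs1 and Lox. Of 14501 rows, 65 met this rule. Vtn and Lox are without a row there and were not analysed here. One of the 65, Itgb3bp, has an integrin-like symbol but codes for a centromere protein, and it was kept out of the integrin groups (246 in PB and 208 in PB-Gbx2).

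The cells were of the 46C line, mouse embryonic stem cells with green fluorescent protein in the Sox1 locus, between passages 21 and 24. Cells were grown on gelatin in serum medium with LIF, and carried either the empty vector (the library titled PB) or the vector for the homeobox factor Gbx2 (the library titled PB-Gbx2). With 1 library for each vector, no value has a replicate error and no test between the vectors was possible. The source names in the labels are crossed with respect to the titles, and groups follow the titles. If the source names were right, each "higher" below would read "lower". The labels do not say whether either culture was a single clone.

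The extracellular matrix of early embryonic cells is mainly a basement membrane. Laminin trimers, each made of an alpha, a beta and a gamma chain, polymerise at the cell surface, type IV collagen forms a second network, and nidogens, perlecan and agrin link the networks. Fibronectin forms fibrils outside this sheet. Cells hold on through integrins, each a pair of an alpha and a beta chain, and through dystroglycan. Fibrillar collagens are the main product of connective tissue cells.

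Levels are the authors' normalized values, rounded to whole numbers, and both libraries share 1 distribution with a median level of 388. Gbx2 itself stood at 345 in PB and 1178 in PB-Gbx2, which goes with the titles. The stem cell markers Pou5f1, Sox2, Nanog, Zfp42, Esrrb, Klf4, Tdgf1 and Utf1 all had rows, with levels from 3430 to 31035. Nanog (8918 and 19872), Zfp42 (8320 and 16671) and Klf4 (4701 and 10924) were at least 2-fold higher in PB-Gbx2. Of all genes with a mean of 1000 or more, 1.55% passed 2-fold in either direction. Esrrb (7508 and 9456), Pou5f1 (9446 and 10597) and Sox2 (9894 and 10302) were higher by less than 2-fold. Tdgf1 was equal (31035 in both) and Utf1 was lower (3843 and 3430). The summed level of the 8 was 1.34-fold higher. The part of this in the matrix values was not tested. In a bulk sample, fewer cells of a type and less RNA per cell cannot be told apart.

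Fibronectin was the one abundant matrix gene that stood apart between the libraries, while most genes of the basement membrane had nearly the same level in both. Counting a gene as 2-fold different where log2(level + 1) differed between the libraries by 1 or more, 5 of the 65 genes were higher and 8 lower in PB-Gbx2. Over all genes, 5.13% were 2-fold higher and 5.25% lower, 10.4% in all. The median log2 ratio of the 65 was 0.00, as it was over all genes, with 31 genes above 0, 32 below and 2 equal.

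Most of the 2-fold differences belonged to weakly expressed genes, where ratios scatter in this table. Of the 19 matrix and integrin genes with a mean level under 100, 9 passed 2-fold, beside 28.4% of all genes in that range. Between 100 and 1000, 3 of 28 did (Col5a3, Col26a1 and Lama3, all lower), beside 5.15% of all genes. At 1000 or more, Fn1 alone of 18 did, beside 1.55%. Of the 48 with 100 or more in at least 1 library, 5 passed (Fn1, Col5a3, Col26a1, Lama3 and Col1a1), beside 4.83% of all such genes. In the authors' deposited table, 0.234% of all genes have an adjusted p under 0.05, which the authors computed from 1 library per group. Fn1 is the sole matrix or integrin gene among them. The authors' deposited table gives it an adjusted p of 0.00397, and Col5a3 one of 0.310. The other 63 have a value of 1 there.

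**Figure D1:**
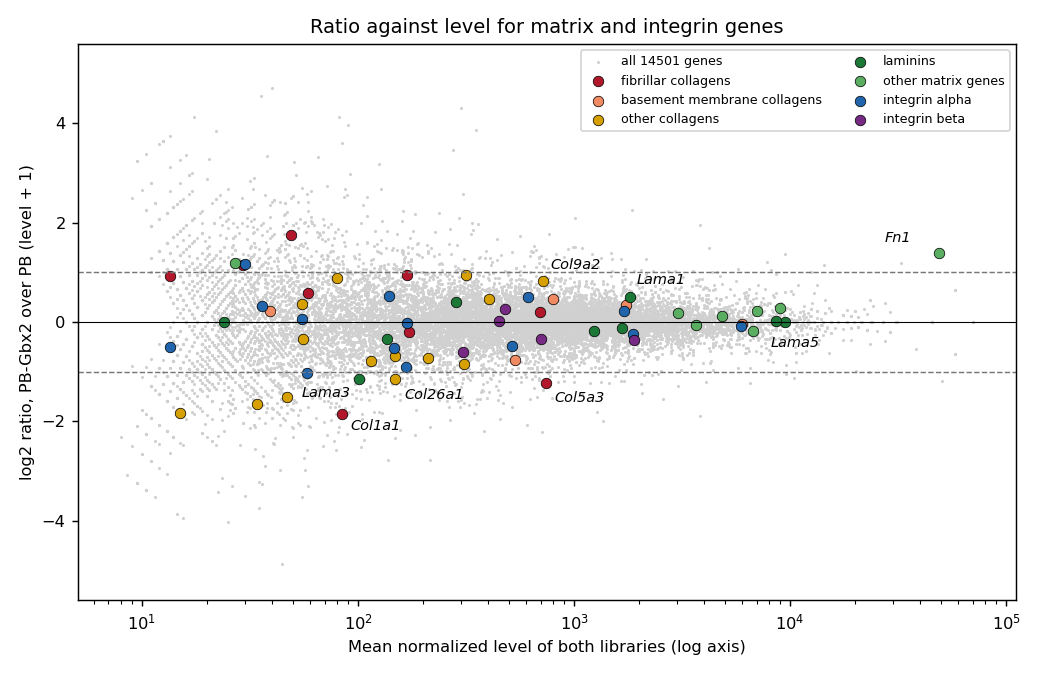
Log2 ratio of PB-Gbx2 over PB on level + 1 (vertical axis) against the mean normalized level of both libraries (horizontal log axis), with all 14501 genes in grey, matrix and integrin genes coloured by group (without Itgb3bp), and dashed lines at 2-fold. Fn1, at a log2 ratio of 1.39, lies alone at the right above the upper line, while the other 17 genes with a mean of 1000 or more lie between the lines.

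Fn1, which codes for fibronectin, stood at 26866 in PB and 70328 in PB-Gbx2, a 2.62-fold higher level in the latter. The lower value shared its level with 2 other genes, at rank 35 of the table, and the higher value is the top level, shared by 10 genes. Because of these ties, both the ranks and the ratio of Fn1 are coarse at this end of the scale. Among the genes of the same twentieth of mean level, the ratio of Fn1 lay at percentile 99.9. Levels can be set side by side between genes only per length. Per kb of the longest transcript, taking the levels as not adjusted for length, the Fn1 level was 3231 in PB and 8458 in PB-Gbx2, the highest of the 65 genes in both libraries.

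The 5 chains of fibronectin receptors set out here had no difference of that size. Itga5, the alpha chain of the classic fibronectin receptor, stood at 1568 and 1820 (1.16-fold higher in PB-Gbx2), and Itgav, the alpha chain shared by receptors for fibronectin and vitronectin, at 506 and 714 (1.41-fold higher). Itgb1, the beta chain that pairs with Itga5 and with most other alpha chains, was 1.28-fold lower in PB-Gbx2 (2130 and 1666). The beta chains that pair with Itgav were split: Itgb3 was 1.52-fold lower (368 and 242) and Itgb5 was 1.20-fold higher (438 and 525). None of these 5 chains reached 2-fold.

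Laminins were close to equal for the chains with high levels. Lama5, the alpha chain of laminin-511, the laminin on which stem cells attach well, had a level of 9420 in both libraries. Lamc1, the gamma chain of nearly all laminins of the early embryo, stood at 8518 and 8690. The beta chains Lamb1 (1736 and 1606) and Lamb2 (1304 and 1158) were 1.08-fold and 1.13-fold lower in PB-Gbx2. These 4 chains differed by at most 1.13-fold.

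Lama1, the alpha chain of laminin-111, the laminin of Reichert's membrane and of the earliest embryonic basement membrane, was the abundant chain with the largest ratio. It went from 1489 to 2121, 1.42-fold higher in PB-Gbx2, at percentile 95.2 among genes of similar level. Per kb, the Lama1 level was 156 in PB and 223 in PB-Gbx2, while that of Lama5 was 827 in both, so Lama5 kept the higher level per length. Per kb the gamma chain Lamc1 (1118 and 1140) was above both beta chains, Lamb1 (300.1 and 278) and Lamb2 (232 and 206).

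Lama3 and Lamb3, chains of the laminin under stratified epithelia, had low levels. Lama3 was 2.22-fold lower in PB-Gbx2 (140 and 63) and Lamb3 was 1.27-fold lower (152 and 120). Itgb4, a receptor chain for that laminin, stood at 446 and 450. Markers of the trophectoderm, an epithelium, were listed for 6 of 10 genes, with a summed level of 2884 in PB and 3101 in PB-Gbx2. The 4 keratins among them were lower, such as Krt19 (377 and 54) and Krt8 (532 and 225), while Eomes (128 and 215) and Tfap2c (1441 and 2439) were higher. Cdx2, Elf5, Gata3 and Hand1 have no row. Their part in the Lama3 value was not tested. Lama4, the alpha chain of vessel laminins, stood at 24 in both libraries, and Lama2 and Lamc3 have no row.

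The proteins that tie the basement membrane together also differed little. Nid1 (4659 and 5046) was 1.08-fold higher and Nid2 (7171 and 6324) 1.13-fold lower in PB-Gbx2, so the nidogens, which bridge laminin to type IV collagen, leaned in opposite directions. The heparan sulfate proteoglycans perlecan (Hspg2, 8143 and 9882) and agrin (Agrn, 6516 and 7581) were 1.21-fold and 1.16-fold higher. Dystroglycan (Dag1), the laminin and agrin receptor outside the integrin family, was 1.13-fold higher (2851 and 3230). Sparc, a secreted protein that binds collagen, stood at 3757 and 3606.

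Taking the laminins, basement membrane collagens, nidogens, perlecan and agrin with a mean level of 500 or more, a cutoff set after the values were seen, 12 of 13 genes differed by less than 1.5-fold. The other was Col7a1 (1.70-fold lower). Of all genes with a mean of 500 or more, 8.36% passed 1.5-fold, so near-equal levels are usual in this range. Their summed level was 57939 in PB and 61026 in PB-Gbx2, 1.05-fold higher. No gene of these 13 reached 2-fold.

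Thbs1, the matrix protein thrombospondin 1, was the single member of the group without collagens, laminins and integrins to lie under 100. It went from 16 to 38, a ratio at percentile 90.2 for its range of levels.

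**Figure D2:**
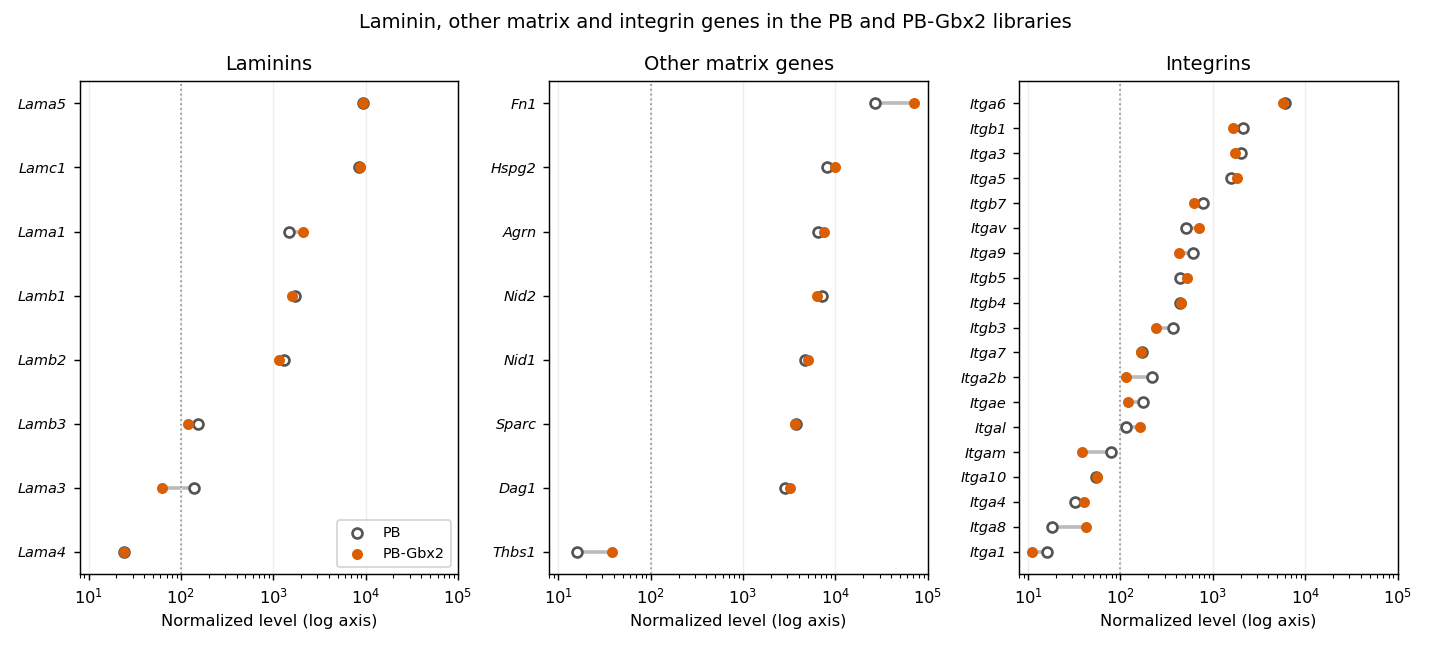
Normalized level (log axis) of laminin, other matrix and integrin genes in PB (open grey circles) and PB-Gbx2 (filled orange circles), 1 library each, ordered by mean level within a panel, with a dotted line at 100. The circles nearly coincide for Lama5, Lamc1, Nid1 and Itga6, and are far apart for Fn1 (26866 and 70328).

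Type IV collagen, the network collagen of all basement membranes, was slightly higher in PB-Gbx2 for both of its common chains. Col4a1 went from 1536 to 1954 (1.27-fold) and Col4a2 from 672 to 926 (1.38-fold). These chains form 1 trimer. Col4a5, a chain of the kidney and eye networks, stood at 36 and 42, and Col4a3, Col4a4 and Col4a6 have no row. Markers of primitive and parietal endoderm, the embryonic cells that secrete most type IV collagen and laminin-111, were listed for 7 of 14 genes. Their summed level was 259 in PB and 415 in PB-Gbx2. Of these 7 genes, 6 stayed under 100 in both libraries, a range where ratios scatter. Pdgfra (63 and 125), Gata4 (36 and 68), Gata6 (18 and 45), Srgn (34 and 62), Ttr (18 and 24) and Dab2 (48 and 56) were higher in PB-Gbx2 and Cubn (42 and 35) was lower. Sox17, Sox7, Foxa2, Thbd, Pth1r, Amn and Afp have no row. Their part in the values of Col4a1, Col4a2, Lama1 and Fn1 was not tested.

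Col18a1, the basement membrane collagen that carries endostatin at its end, had the highest level of the collagens and was nearly equal (6107 and 5926). Per kb its level was 1092 in PB and 1059 in PB-Gbx2, above Col4a1 (232 and 295). Col7a1, which forms the anchoring fibrils under skin, was lower in PB-Gbx2 (668 and 392), at percentile 2.34 among genes of similar level. None of the 5 listed basement membrane collagens passed 2-fold, and their median log2 ratio was 0.22.

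The chains of type V and type XI collagen, which sit inside larger collagen fibrils and limit their width, did not move together. Col5a3 was 2.33-fold lower in PB-Gbx2 (1034 and 444), the lowest percentile of the 65 genes at 0.276. Col5a1, the chain of every type V trimer, was 1.14-fold higher (650 and 743), Col5a2 stood at 47 and 71, and Col11a1 was 1.95-fold higher (114 and 222), short of 2-fold on the scale used. Col11a2 went from 18 to 41. The 250 bases before the annotated start of the 3 chains with levels over 100 are printed because these related genes differ in direction. They come from RefSeq on build GRCm38.p6, while the deposited table was made on mm9. Each is written 5′ to 3′ on the strand of the gene, with GC boxes (GGGCGG, or CCGCCC on the other strand) and CCAAT boxes (CCAAT, or ATTGG on the other strand) in capitals.
Col5a3, chr9:20815068-20815317, minus strand: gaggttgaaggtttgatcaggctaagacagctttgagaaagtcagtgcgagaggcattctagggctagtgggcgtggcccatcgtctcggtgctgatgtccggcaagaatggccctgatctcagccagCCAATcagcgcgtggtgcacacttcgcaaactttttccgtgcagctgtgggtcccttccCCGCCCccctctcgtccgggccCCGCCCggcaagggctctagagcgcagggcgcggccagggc
Col5a1, chr2:27886175-27886424, plus strand: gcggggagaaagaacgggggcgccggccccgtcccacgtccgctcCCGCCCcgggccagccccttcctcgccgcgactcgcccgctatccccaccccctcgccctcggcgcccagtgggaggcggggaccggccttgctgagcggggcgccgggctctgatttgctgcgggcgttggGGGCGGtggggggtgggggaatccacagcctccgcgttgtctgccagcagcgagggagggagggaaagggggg
Col11a1, chr3:114030290-114030539, plus strand: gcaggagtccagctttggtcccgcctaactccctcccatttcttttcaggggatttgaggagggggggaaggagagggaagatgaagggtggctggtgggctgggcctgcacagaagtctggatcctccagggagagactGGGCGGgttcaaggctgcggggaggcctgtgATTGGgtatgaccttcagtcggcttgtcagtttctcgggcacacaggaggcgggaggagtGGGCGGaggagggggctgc

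Each of the 3 windows holds 2 GC boxes. This motif occurs in 32.7% of the 32851 promoter windows of this length and in 66.7% of the 51 windows of matrix and integrin genes. The 32851 windows were not limited to genes with a row, while the 51 were, so these shares are not on a like base. Col5a3 and Col11a1 also hold 1 CCAAT box each, as 33.8% of windows do, and Col5a1 holds none. None of the 3 holds TAATTA, a common core of homeodomain sites, which 4.84% of all windows hold. The motifs do not overlap each other here. Col5a3, which was lower, and Col11a1, which was higher, hold the same number of both boxes. Promoter windows were available for 45 of the 65 genes.

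Type I collagen, the main collagen of connective tissue, was at low levels. Col1a1 was 3.67-fold lower in PB-Gbx2 (132 and 36), while its partner chain Col1a2 stood at 9 and 18, the opposite direction at a level where ratios scatter. Col3a1, a further collagen of fibroblasts, has no row. Among the fibroblast markers that are not collagens, 5 of 10 were listed, with a summed level of 3641 in PB and 2567 in PB-Gbx2. They included Thy1 (866 and 492), S100a6 (435 and 143), Pdgfrb (626 and 486) and Vim (1698 and 1420), all lower in PB-Gbx2, and Twist1 (16 and 26), which was higher, while Dcn, Lum, Postn, Twist2 and S100a4 have no row. Their part in the Col1a1 value was not tested. Col2a1, the collagen of cartilage, stood at 184 and 161, and Col27a1 went from 22 to 76. Of the 9 listed fibrillar collagens, 2 were 2-fold higher and 2 lower, in all 44.4% beside 10.4% of all genes. Apart from Col5a3, these had a mean level under 100, where 28.4% of all genes pass 2-fold. The 4 fibrillar collagens that never reached a level of 100 were all higher in PB-Gbx2, which carried the group's median to 0.58. Over the 5 that did, the median was -0.19.

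Of the 14 collagens outside these groups, 9 were lower and 5 higher in PB-Gbx2, and their median log2 ratio was -0.70. Their summed level went slightly the other way, from 2583 to 2737. None was 2-fold higher and 4 were 2-fold lower, beside 5.25% of all genes. Only Col26a1 (206 and 92, 2.24-fold) of those 4 reached a level of 100. Col23a1 (24 and 6), Col8a2 (52 and 16) and Col6a6 (70 and 24) lay under it, in the range where 28.4% of all genes pass 2-fold in either direction. Type IX collagen, which decorates cartilage fibrils and needs 3 different chains, was split between its listed chains. Col9a2 was 1.77-fold higher in PB-Gbx2 (521 and 921) and Col9a3 1.81-fold lower (398 and 220), and Col9a1 has no row. Their percentiles among genes of similar level were 97.8 and 4.14.

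Type VI collagen, which forms beaded filaments, was lower for each of its 4 listed chains. Col6a4 (183 and 114) was 1.61-fold, Col6a5 (146 and 84) 1.74-fold, Col6a6 2.92-fold and Col6a2 (62 and 49) 1.27-fold lower. Col6a1 and Col6a3, which complete the common trimer with Col6a2, have no row. The membrane-spanning collagens that reached 100 differed in direction: Col13a1 was 1.38-fold higher (338 and 468), and Col17a1, the collagen of hemidesmosomes, was 1.65-fold lower (262 and 159). Col23a1, a further one under that level, was also lower (24 and 6). Col20a1 was 1.93-fold higher (217 and 418), at percentile 98.3, Col22a1, found at tissue junctions, went from 56 to 104, and Col16a1 stood at 48 and 62.

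**Figure D3:**
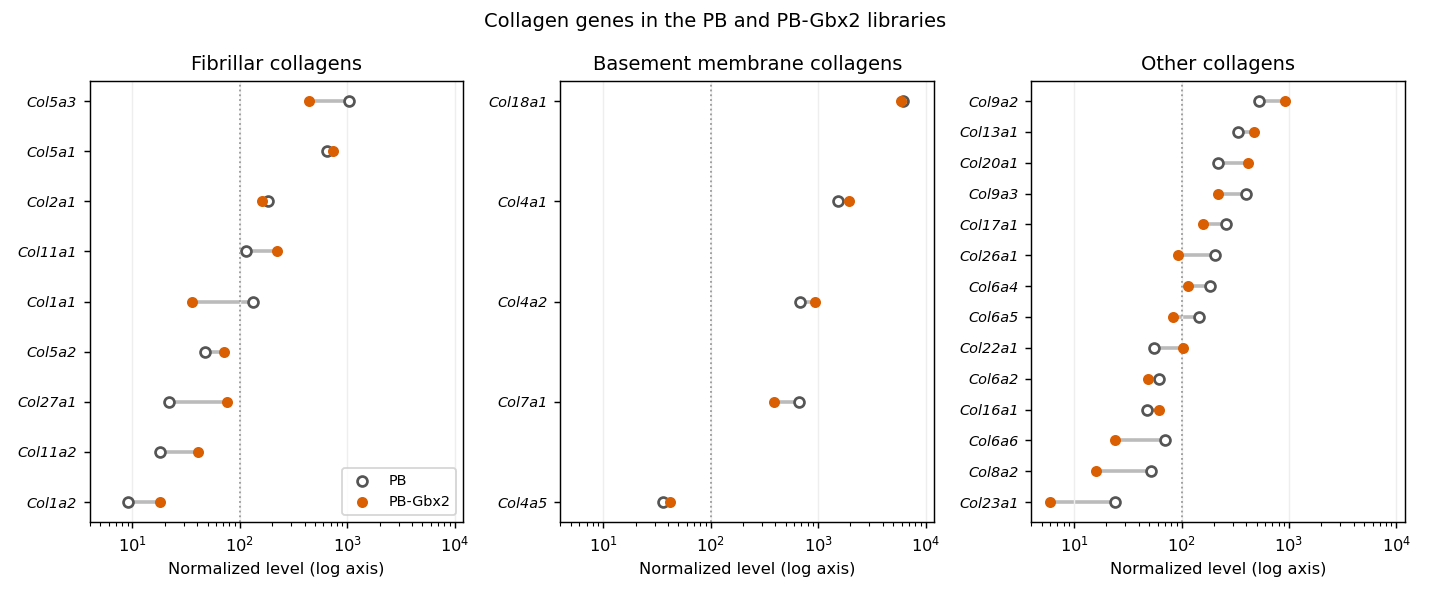
Normalized level (log axis) of each listed collagen gene in PB (open grey circles) and PB-Gbx2 (filled orange circles), 1 library each, ordered by mean level within a panel, with a dotted line at 100. Col5a3, Col26a1 and Col1a1 lie clearly to the left in PB-Gbx2, Col20a1 and Col9a2 to the right, and Col18a1 has nearly the same level in both (6107 and 5926).

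Integrins differed less than collagens. Of 19 listed chains, 1 was 2-fold higher (Itga8, 18 and 42) and 1 was 2-fold lower (Itgam, the leukocyte chain, 78 and 38), both under a level of 100. That is 10.5% of the chains, near the 10.4% of all genes. With a pseudocount of 5, Itgam was at -0.95 and no longer passed. Chains that reached 100 all stayed inside 2-fold. The median absolute log2 ratio was 0.35 for the 19 integrins, 0.81 for the 28 collagens and 0.27 over all genes. Of the 28 collagens, 10 stayed under 100 in both libraries, where ratios scatter more, as did 5 of the 19 integrins. Among the collagens that reached 100, Col5a3, Col26a1 and Col1a1 passed 2-fold. The part of low-level genes in the gap between these medians was not tested.

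The laminin receptor chain Itga6 had the highest integrin level, 6102 in PB and 5804 in PB-Gbx2. Itga3, which also binds laminins, was 1.18-fold lower in PB-Gbx2 (2030 and 1717), and Itga7, the laminin receptor chain of muscle, stood at 170 and 167. Per kb, the level of Itga6 was 1416 in PB and 1347 in PB-Gbx2, above Itgb1 (558 and 437), Itga3 (418 and 353) and Itga5 (355 and 412). The laminin-binding chains Itga6 and Itga3 were thus above the fibronectin-binding chain Itga5 per length in PB, whereas in PB-Gbx2 Itga5 was above Itga3. With 1 library each, this change of order has no error to be set against.

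The collagen-binding alpha chains were at low levels or without a row. Itga1 stood at 16 and 11 and Itga10 at 54 and 56, and Itga2 and Itga11 have no row. Itga9, which binds tenascin and other matrix proteins, was 1.40-fold lower in PB-Gbx2 (604 and 430), and Itga4, a fibronectin and VCAM-binding chain, stood at 32 and 40. Itga2b and Itgb3, the chains of the platelet fibrinogen receptor, were both lower, by 1.87-fold (217 and 116) and 1.52-fold (368 and 242). The chains best known from leukocytes were split: Itgb7 (786 and 621) and Itgae (174 and 120), which pair with each other, were 1.27-fold and 1.45-fold lower, and Itgal (114 and 164) was 1.44-fold higher. Itgb2, the partner of Itgal and Itgam, has no row, nor have Itgb6 and Itgb8.

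The genes that modify and crosslink collagen leaned lower in PB-Gbx2. Of 26 listed, 18 were lower and 8 higher, with a median log2 ratio of -0.24, beside 0.00 over all genes. The crosslinking oxidase Loxl2 was the single one past 2-fold (548 and 210, 2.61-fold lower). That is 3.85% of the list, beside 10.4% of all genes. The prolyl 4-hydroxylase subunits P4ha1 (1095 and 697) and P4ha2 (855 and 589), needed for a stable collagen helix, were 1.57-fold and 1.45-fold lower, and peroxidasin (Pxdn, 652 and 456), which crosslinks type IV collagen, 1.43-fold lower.

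Proteases and their inhibitors had a median of 0.10 over 28 genes, with 3 at least 2-fold higher and none 2-fold lower. That is 10.7% of them, near the 10.4% of all genes. Those higher included the protease inhibitor Serpine2 (397 and 980, 2.47-fold) and the membrane protease Mmp15 (80 and 172, 2.15-fold). The secreted protease Adamts9 was 1.69-fold higher (253 and 428).

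Focal adhesion genes, which link integrins to actin, had a median of 0.03 over 35 genes. Of these, 3 were 2-fold higher and 1 was 2-fold lower, in all 11.4% beside 10.4% of all genes. Parva, the actin-binding partner of integrin-linked kinase, went from 34 to 107, the sole one of the 4 to reach a level of 100. Lpp (618 and 400), Kank1 (637 and 438) and the kinase Fyn (829 and 589) were between 1.41-fold and 1.55-fold lower.

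Matricellular proteins, fibulins and small proteoglycans scattered most among these lists. Of 37 listed genes, 7 were 2-fold higher and 5 lower, with a median of -0.02. That is 32.4% of them, beside 10.4% of all genes, and 15 of the 37 stayed under 100. Ltbp3, which binds latent TGF-beta, was 3.28-fold lower in PB-Gbx2 (452 and 138) and the proteoglycan Ncan 2.65-fold lower (276 and 104). Cyr61 (42 and 130), an integrin ligand, and the cartilage matrix protein Matn1 (61 and 184) were higher.

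Heparan sulfate proteoglycans and other matrix receptors had a median of 0.14 over 35 genes, with 3 at least 2-fold higher and none 2-fold lower. That is 8.57% of them, beside 10.4% of all genes. The sulfotransferase Hs6st1, which modifies heparan sulfate, was 2.05-fold higher (982 and 2011). The tetraspanin Cd81 was 1.67-fold higher (2757 and 4610) and the glypican Gpc2 1.90-fold lower (275 and 145).

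**Figure D4:**
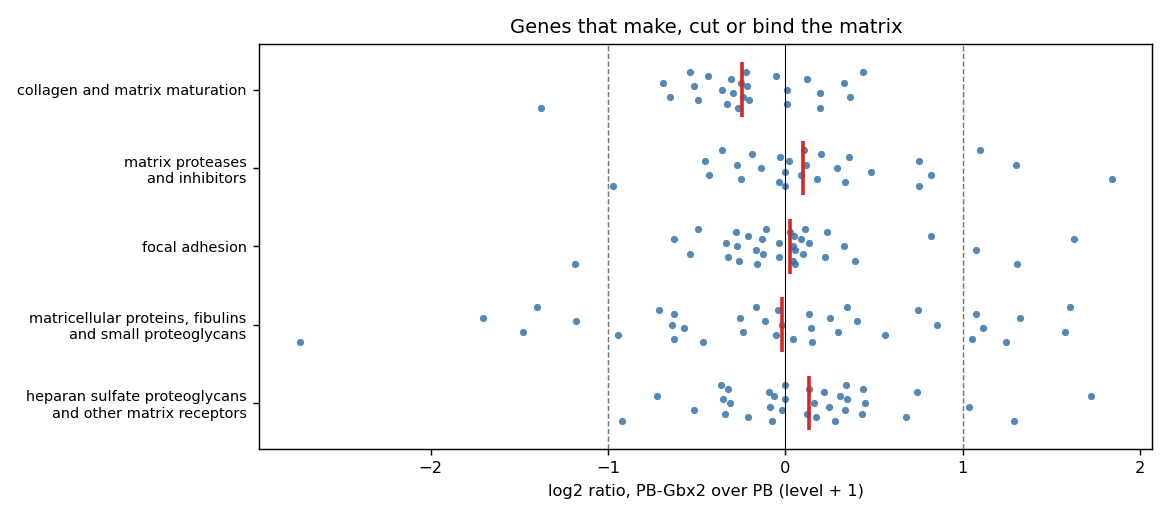
Log2 ratio of PB-Gbx2 over PB on level + 1 (horizontal axis) for each listed gene of 5 groups that make, cut or bind the matrix, with the group median in red and dashed lines at 2-fold. The median of the collagen and matrix maturation genes lies at -0.24, and the other 4 medians lie between -0.02 and 0.14.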

How the data were processed

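RNA of 2 cultures was sequenced, 1 library per group. Reads were handled with STAR on mm9, per the submitters' processing notes; for the versions, the annotation and the counter used, nothing is given in the sources used here. Levels are a score that the authors normalized and rounded: sorted values are the same in both libraries (total 16528899), so read depth is unknown and no counting interval could be given. The authors deposited their ratio and log2 ratio of PB over PB-Gbx2, and their p-value and adjusted p-value, quoted only as theirs.

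Log2 ratios (PB-Gbx2 over PB) were taken on level + 1, which understates low genes. Fold values are ratios of the deposited levels. No p-value was computed. Percentiles place a gene among a twentieth of all 14501 rows by mean level. Lengths are those of the longest GENCODE M21 transcript, found for all 65 genes. Genes reaching a level of 100 in either library are named, with all 2-fold ones below it, and up to 4 per further list. A few genes under this rule are not reported here. Members and lists were chosen with earlier results of these data known. Alternatives were pseudocounts of 0.1 and 5, a 1.5-fold threshold, a minimum of 100, rescaling, and leaving out genes at 10000 or more. The ratio function was checked on simulated data. Python 3.11.15, numpy 2.4.6 and pandas 2.3.3 were used.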

Additional observations from a re-analysis of the deposited data

How the results depend on the processing

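A 1.5-fold threshold gave 10 matrix and integrin genes higher and 15 lower in PB-Gbx2 (23.7% of all genes pass it), and a minimum level of 100 gave 1 higher and 4 lower. With that minimum the fibrillar collagen median was -0.19, since fewer genes entered. The other 27 of 28 group medians, all 15 medians of the further lists and all 195 values of single genes moved by less than 1.5-fold under the settings run. A pseudocount of 5 gave 5 higher and 7 lower, as Itgam fell just short (-0.95). Leaving out genes at 10000 or more removes Fn1 and gave 4 higher and 8 lower. Rescaling says nothing about stability, since both libraries already share 1 distribution. No paired analysis was possible because there is a single library for each vector, which also leaves none to omit.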

Other observations

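Several of these genes lie next to each other in the genome, by the order of RefSeq protein-coding genes. The neighbours Col4a1 and Col4a2 were both higher in PB-Gbx2 (1.27-fold and 1.38-fold), and the neighbours Col6a4, Col6a5 and Col6a6 were all lower (1.61-fold, 1.74-fold and 2.92-fold). With 1 library per group, this was not tested.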
